A study of Mus musculus with 11 samples.

Results

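Schwann cells and sustentacular cells are the peripheral glia of the adrenal gland, and 8 genes that mark them were examined: Mbp, Pmp22, Sox10, S100b, Gfap, Cdh19, Erbb3 and Foxd3. The members were taken by gene symbol from a deposited count table of 23337 genes, in which all 8 were present, and all 8 were among the 14139 genes with enough counts to test. RNA was sequenced from whole adrenal glands of male Hsd:Athymic Nude-Foxn1nu mice, an immunodeficient strain. The 11 samples comprised 5 labelled Intact and 6 labelled Orchectomized (ORX, testes removed), with no other treatment named. Every mouse in both groups had been inoculated with VCaP cells, a human prostate cancer line, at about 5 to 6 weeks of age in study week 0. Allocation to the groups followed at week 7, and adrenals were taken at week 15. There was no group without inoculated cells. Total counts were 11368447 to 15029582 per library, with no batch given in the labels. The single comparison, ORX against intact, asks whether glial transcripts differed between the groups and whether they moved with those of the medulla.

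Schwann cells ensheathe the nerve fibres that run to the adrenal medulla, where catecholamines are made. Sustentacular cells are their relatives that wrap around chromaffin cells, the secretory cells of the medulla. Both descend from the neural crest, and Schwann cell precursors on the incoming nerves also give rise to many chromaffin cells during development. Sox10 and Foxd3 are transcription factors of that lineage, Erbb3 is the receptor through which axonal neuregulin maintains Schwann cells, and Cdh19 is a cadherin of the same cells. S100b, a calcium-binding protein, and Gfap, an intermediate filament, are the classical stains for sustentacular and non-myelinating glia, and Mbp and Pmp22 encode myelin proteins. Several of the 8 are also known outside glia: S100b in fat cells, Pmp22 in many epithelial and connective tissue cells, and Mbp as the Golli transcripts of lymphoid and other cells.

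Of the 8 genes, Gfap alone passed the test, falling 5.76-fold in ORX, and none rose. Over all 14139 tested genes, 3.18% were called lower and 3.03% higher, 6.21% in all, by the two-sided quasi-likelihood test of edgeR at a Benjamini-Hochberg adjusted p below 0.05. The log2 change was below 0 for 6 of the 8 genes and above 0 for Mbp and Pmp22, with a median of -0.64, against 0.01 over all tested genes. The groups overlapped in each of the 8 genes, as in most tested genes. Over all tested genes, 5.28% had no overlap, 2.92% with every ORX library higher and 2.36% with every ORX library lower. Levels are given as CPM, counts per 1000000 of the library total after TMM scaling, and log2 differences are ORX over intact. The mean log2 CPM of the 8 genes lay between 3.25 and 3.42 in intact and between 2.56 and 2.80 in ORX, and between 2.96 and 3.61 and between 2.66 and 2.91 when Gfap was left out. With Gfap and Foxd3 both left out the groups overlapped, at 3.19 to 4.10 in intact and 2.97 to 3.38 in ORX. In whole glands, fewer glial cells and less RNA per glial cell cannot be told apart.

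**Figure D1:**
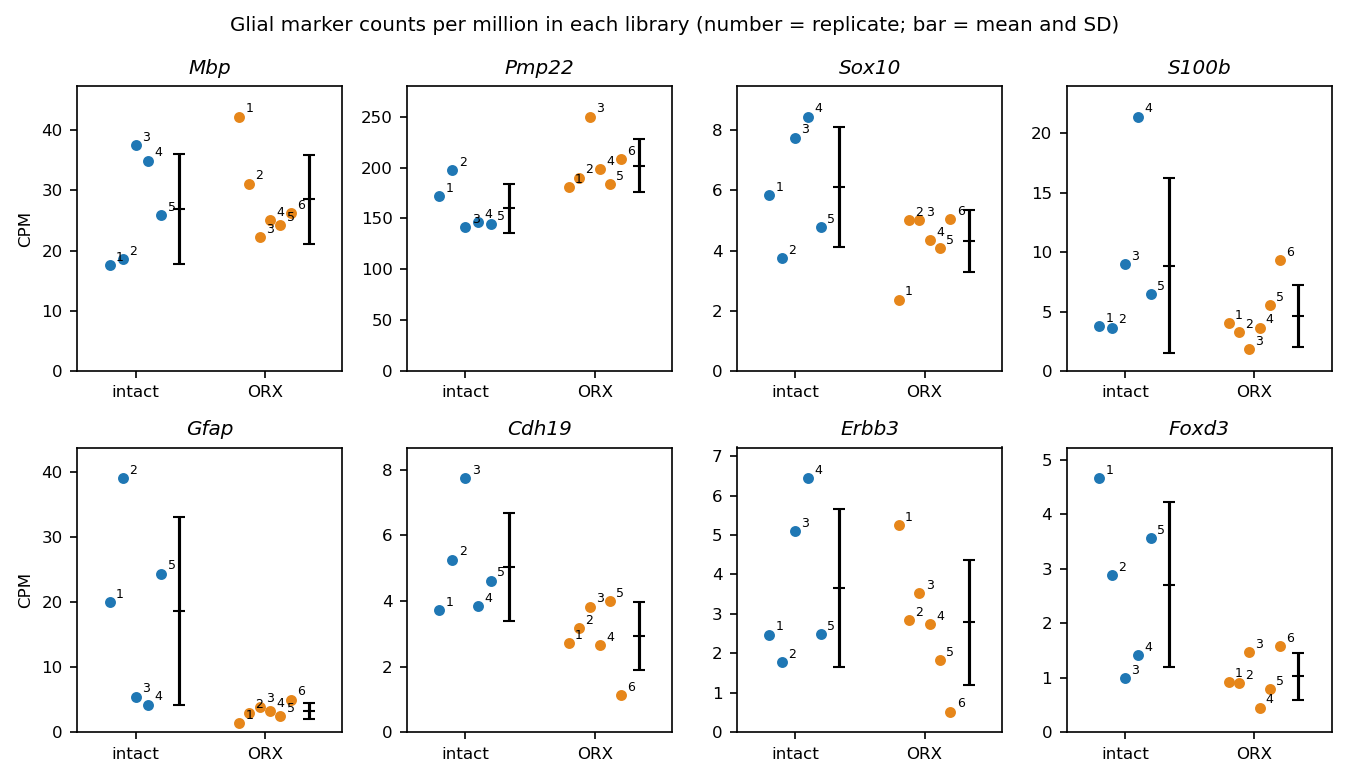
Each point is 1 library, numbered by replicate, as CPM (vertical axis, starting at 0) for the 8 glial genes in intact (blue, n = 5) and ORX (orange, n = 6); the bar is the mean with SD. Gfap and Foxd3 are high in intact 1, 2 and 5 and low in intact 3 and 4, while the Mbp, Sox10 and Erbb3 points of intact 3 and 4 are the highest of the intact group.

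For the filament gene Gfap (chromosome 11, 102887336 to 102900912, minus strand, GRCm38), the intact libraries 1 to 5 read 19.98, 39.1, 5.50, 4.27 and 24.4 CPM. In ORX the lowest was 1.44, the median 3.16 and the highest 5.05 CPM. Intact 1, 2 and 5 thus lay well above all ORX libraries, and intact 3 and 4 lay near the highest ORX libraries. The span of a non-coding gene, Gm26668, overlaps that of Gfap in antisense, and overlap of their exons was not examined. Without a stated strand setting, reads from any bases they share may not be told apart. The mean went from 18.6 ± 14.4 to 3.23 ± 1.23 CPM (SD, n = 5 and 6), and the fitted log2 difference was -2.53 with an SE of 0.52 (edgeR adjusted p = 0.0124); later values are likewise given with their SE. The fall was called whichever library was left out (edgeR adjusted p from 0.00428 to 0.0384). It was not called when the chromaffin score described below was a covariate (log2 -0.52 ± 0.82; edgeR adjusted p = 0.794), a score that itself differed between the groups. With that covariate 52 genes were called over all tested genes, in place of 878.

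Foxd3, a neural crest transcription factor with a single annotated transcript (chromosome 4, 99656299 to 99658622), had the next largest difference and missed the threshold. The intact libraries 1 to 5 read 4.67, 2.89, 0.994, 1.42 and 3.56 CPM, and the ORX libraries lay between 0.457 and 1.58 CPM with a median of 0.921. As with Gfap, the high values were those of intact 1, 2 and 5. The log2 difference was -1.39 ± 0.42 (edgeR adjusted p = 0.0689), on counts of only 6 to 64 per library. It passed without intact 3 (edgeR adjusted p = 0.0267) and without intact 4 (0.0493), and with all libraries under DESeq2 (adjusted p = 0.0235) and limma voom (0.0168).

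Because Gfap and Foxd3 had the largest differences and the same high and low intact libraries, their promoters are shown, 250 bases before to 50 after the RefSeq transcript start (GRCm38.p6). The Gfap window is chr11:102897151-102897450 on the minus strand and that of Foxd3 is chr4:99656049-99656348 on the plus strand. The GENCODE gene model of Gfap extends upstream of this RefSeq start. Capitals mark an E-box (CANNTG).
Gfap: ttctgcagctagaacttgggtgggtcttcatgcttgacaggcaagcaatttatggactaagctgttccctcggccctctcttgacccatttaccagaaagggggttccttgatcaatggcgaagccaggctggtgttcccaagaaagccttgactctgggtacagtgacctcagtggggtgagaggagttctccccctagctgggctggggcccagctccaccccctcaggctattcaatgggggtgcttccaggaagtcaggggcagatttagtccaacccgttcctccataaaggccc
Foxd3: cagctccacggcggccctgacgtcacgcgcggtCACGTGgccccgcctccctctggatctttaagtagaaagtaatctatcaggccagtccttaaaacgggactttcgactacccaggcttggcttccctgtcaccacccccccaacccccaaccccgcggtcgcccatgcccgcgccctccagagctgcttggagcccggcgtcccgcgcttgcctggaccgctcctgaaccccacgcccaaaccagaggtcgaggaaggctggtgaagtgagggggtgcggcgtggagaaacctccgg
The windows were searched on both strands for the E-box, for the SOX elements ACAAAG and ACAATG, for TATAAA, for the AP-1 element TGANTCA, for the steroid receptor half-site AGAACA and for the SF-1 element CAAGGTCA. Foxd3 held 1 E-box (CACGTG) and Gfap held none of these letters. The E-box occurs in 72.3% of 32851 promoters of this length, ACAAAG in 18.7%, ACAATG in 12.6%, TATAAA in 13.6%, TGANTCA in 7.81%, AGAACA in 19.0% and CAAGGTCA in 1.56%. The table of promoters also held S100b, with 1 start, and Pmp22, with 4 separate starts. The counts are per gene, so transcripts from the 4 Pmp22 starts were summed.

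Of the other glial lineage genes, Sox10, the master regulator of peripheral glia, read 5.83, 3.74, 7.75, 8.45 and 4.77 CPM in intact 1 to 5. The ORX libraries had a lowest of 2.37, a median of 4.67 and a highest of 5.05 CPM. The groups overlapped, and the log2 difference was -0.50 ± 0.27 (edgeR adjusted p = 0.282). Cdh19 stood at 3.72, 5.27, 7.75, 3.85 and 4.62 CPM in intact and between 1.13 and 4.004 CPM in ORX, with a median of 2.95. Every ORX library but ORX 3 and 5 lay below all intact libraries, and the difference of -0.79 ± 0.31 did not pass (edgeR adjusted p = 0.151).

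The neuregulin receptor Erbb3 read 2.48, 1.78, 5.10, 6.44 and 2.50 CPM in intact 1 to 5 and 0.528 to 5.24 CPM in ORX, with a median of 2.80. The groups shared most of their range (log2 -0.39 ± 0.47; edgeR adjusted p = 0.667). ORX 6 was the lowest library for both Cdh19 (1.13 CPM) and Erbb3 (0.528 CPM, 7 counts). In ORX 6 the decile of genes with the longest transcripts deviated by a median of -0.67 on the log2 scale from the other ORX libraries and the shortest decile by 0.73. The longest transcripts of Cdh19 and Erbb3 have 3914 and 6016 bases. The longest of the 16 annotated Mbp transcripts has 4797 bases. In ORX 6, Mbp deviated by -0.085 from the ORX mean of log2 CPM, a mean that includes ORX 6, unlike that used for the deciles. With a transcript length correction, the differences were -0.78 ± 0.30 for Cdh19 and -0.31 ± 0.43 for Erbb3 (edgeR adjusted p = 0.142 and 0.727). The part of transcript length in the low Cdh19 and Erbb3 values of ORX 6 was not tested. Without ORX 6 the Erbb3 difference was -0.17 ± 0.39 (edgeR adjusted p = 0.834) and that of Cdh19 -0.62 ± 0.25 (0.164).

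S100b varied widely among the intact libraries, with 3.79, 3.65, 9.01, 21.4 and 6.44 CPM in intact 1 to 5. In ORX it ranged from 1.84 to 9.35 CPM with a median of 3.84, and ORX 6 was the highest. The groups overlapped widely, and the log2 difference of -0.94 ± 0.49 did not pass (edgeR adjusted p = 0.268). The S100b difference became -0.33 ± 0.41 without intact 4, the library with 21.4 CPM, and -1.27 ± 0.48 without ORX 6 (edgeR adjusted p = 0.686 and 0.132). With the transcript length correction it was -1.16 ± 0.45 (edgeR adjusted p = 0.144). The longest S100b transcript has 1484 bases, and the part of transcript length in the high S100b value of ORX 6 was not tested. S100b lies on chromosome 10 (76253853 to 76261159) and overlaps the protein-coding gene Dip2a in antisense. Overlap of their exons was not examined, and with no strand setting stated, reads from any bases the 2 genes share may not be told apart. Fat markers were lower in ORX in the same direction: all 14 listed had a log2 difference below 0, with a median of -0.60, and none passed. Their mean level was 7.96 to 9.79 log2 CPM in intact and 7.59 to 9.23 in ORX. With that level as a covariate, the S100b difference was -0.45 ± 0.60 (edgeR adjusted p = 0.686). The differences of Sox10 (-0.26 ± 0.30) and Erbb3 (-0.06 ± 0.59) were also smaller with it, and those of Gfap (-2.66 ± 0.51) and Foxd3 (-1.40 ± 0.46) were not. Within the groups, S100b had a Pearson r of 0.28 with the fat level. The part of fat in the S100b difference was not tested.

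The myelin genes Mbp and Pmp22 had log2 differences above 0, unlike the other 6, and neither passed. Mbp read 17.6, 18.6, 37.6, 35.0 and 25.8 CPM in intact 1 to 5, and 22.2 to 42.3 CPM in ORX with a median of 25.6. Its highest intact libraries were 3 and 4, those that were lowest for Gfap. The log2 difference was 0.08 ± 0.23 (edgeR adjusted p = 0.868), and it was slightly below 0 without intact 1, intact 2 or ORX 1. Pmp22 read 172, 197, 141, 147 and 144 CPM in intact 1 to 5 and had a lowest of 181, a median of 194 and a highest of 250 CPM in ORX. All ORX libraries lay above 4 of the 5 intact ones, with intact 2 inside the ORX range. Its log2 difference, 0.33 ± 0.14, had the smallest SE of the 8 and did not pass (edgeR adjusted p = 0.169). Over the alternatives it was lowest with the transcript length correction (0.21 ± 0.15; edgeR adjusted p = 0.436). It was highest with the chromaffin score as a covariate (0.74 ± 0.19; 0.144). Pmp22 lies on chromosome 11 (63128982 to 63159547).

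Per kilobase of the longest transcript, Pmp22 was far above the rest, with 87.9 ± 13.2 CPM per kb in intact and 111 ± 14.1 in ORX (SD). Gfap followed in intact at 7.04 ± 5.45, then S100b at 5.97 ± 4.96 and Mbp at 5.61 ± 1.91, and these 3 did not differ beyond their spread. Sox10 (2.20 ± 0.71), Cdh19 (1.29 ± 0.42), Foxd3 (1.16 ± 0.65) and Erbb3 (0.609 ± 0.33) were lower, and neighbours in that order again overlapped within 1 SD. In ORX the order differed: Mbp (5.95 ± 1.54) and S100b (3.10 ± 1.76) stood above Sox10 (1.55 ± 0.37) and Gfap (1.22 ± 0.47). The lowest there were Cdh19 (0.747 ± 0.27), Erbb3 (0.464 ± 0.26) and Foxd3 (0.442 ± 0.18).

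Whether the 8 genes moved with the medulla was examined with a score, the mean log2 CPM of 32 chromaffin genes such as Th (catecholamine synthesis) and Chga (secretory granules). Of these 32 genes, 6 were called lower and none higher, and the median log2 difference was -0.41. Slc18a2, the vesicular monoamine transporter, fell by 1.44 ± 0.24 on the log2 scale, the growth factor receptor gene Ret fell by 1.77 ± 0.34 and the secreted peptide precursor gene Vgf fell by 5.32 ± 1.003 (edgeR adjusted p = 0.00411, 0.00917 and 0.00798). Th (-1.25 ± 0.36; edgeR adjusted p = 0.0565), Chga (-0.12 ± 0.25; 0.819) and Pnmt, the adrenaline-forming enzyme gene (0.24 ± 0.38; 0.756), did not pass, and Th passed without intact 3, intact 4, ORX 3 or ORX 6 (edgeR adjusted p from 0.0311). The score lay between 6.49 and 7.00 in intact and between 5.71 and 6.43 in ORX, with no overlap.

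Each gene was then expressed relative to that score in its own library. On this scale the median of the 8 glial genes was 0.03, against 0.65 for all tested genes, and 49.7% of all genes were called, 48.9% higher and 0.75% lower (limma, Benjamini-Hochberg adjusted p under 0.05). Sox10 (0.17 ± 0.30), S100b (-0.12 ± 0.50), Cdh19 (-0.15 ± 0.38) and Erbb3 (0.18 ± 0.55) did not differ from the score beyond their error (limma adjusted p from 0.633 to 0.843). None of these 4 had passed on the CPM scale either, and their standard errors do not separate a fall with the score from the median of all genes, 0.65. Pmp22 was higher relative to the score (0.98 ± 0.16; limma adjusted p = 0.000873), in the direction of most genes. Gfap was lower even relative to the score (-1.47 ± 0.44; limma adjusted p = 0.0155), Foxd3 was at -0.53 ± 0.37 (0.223) and Mbp at 0.76 ± 0.33 (0.0662), with Mbp called without intact 3, intact 4, ORX 3 or ORX 6 (limma adjusted p from 0.0286). With only 6 catecholamine and granin genes as the score, 1569 genes were called in place of 7027, and Pmp22 (0.90 ± 0.25; limma adjusted p = 0.0301) and Gfap (-1.55 ± 0.44; 0.0325) remained called.

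**Figure D2:**
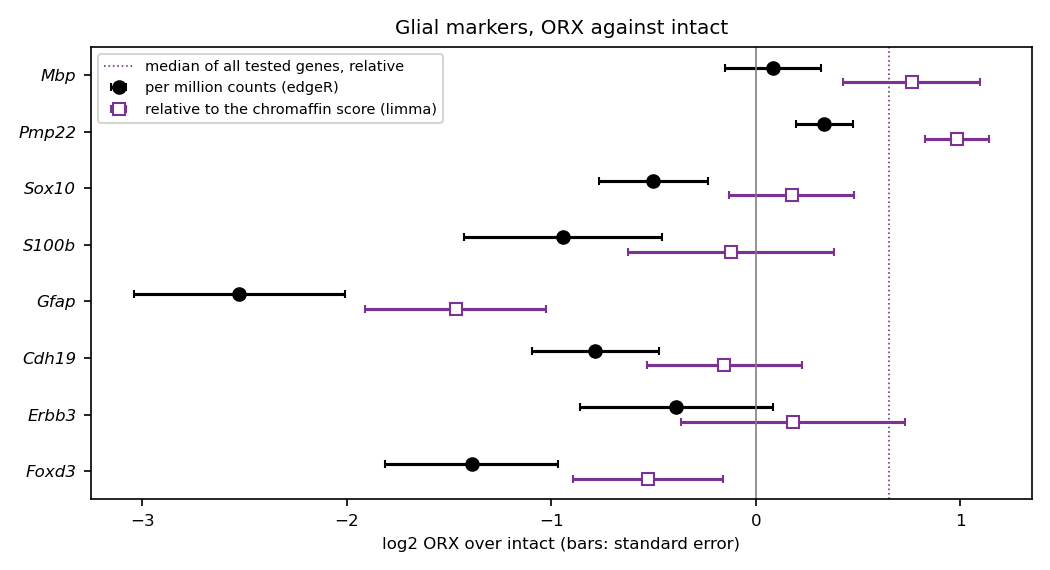
Log2 change of the 8 glial genes (horizontal axis, ORX over intact, bars are standard errors) on the CPM scale (filled circles, edgeR) and relative to the chromaffin score (open squares, limma); the dotted line is the median of all tested genes on the relative scale, 0.65. Gfap lies below 0 on both scales, and Sox10, S100b, Cdh19 and Erbb3 lie close to 0 on the relative one.

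Within the groups, the 8 genes did not vary as a block. After the group means were removed, 18 of the 28 pairs of genes had a negative correlation over the 11 libraries, and the median Pearson r was -0.18. Of the 28 pairs, 4 had an unadjusted exact permutation p of r under 0.05. The share over all pairs of tested genes was not computed, so this count does not set the glial genes apart. With the chromaffin score, 16.4% of genes outside its list had such a p. Gfap and Foxd3 were not among them (r = 0.71, exact permutation p = 0.0565, Spearman rho = 0.74, exact p = 0.0391). Gfap and Mbp were opposed (r = -0.83, exact permutation p = 0.0131; rho = -0.66, exact p = 0.0769), as were Gfap and Erbb3 (r = -0.74, exact permutation p = 0.00228; rho = -0.84, exact p = 0.00473). Mbp and Pmp22 were opposed too (r = -0.76, exact permutation p = 0.0194, rho = -0.82, exact p = 0.00885). Gfap and Pmp22 were positively related (r = 0.67, exact permutation p = 0.037, rho = 0.62, exact p = 0.0881). No pair passed when p was adjusted over all tested genes. Without the 2 libraries farthest from the median of Gfap, its r was 0.73 with Foxd3, -0.89 with Mbp, -0.71 with Erbb3 and 0.72 with Pmp22.

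**Figure D3:**
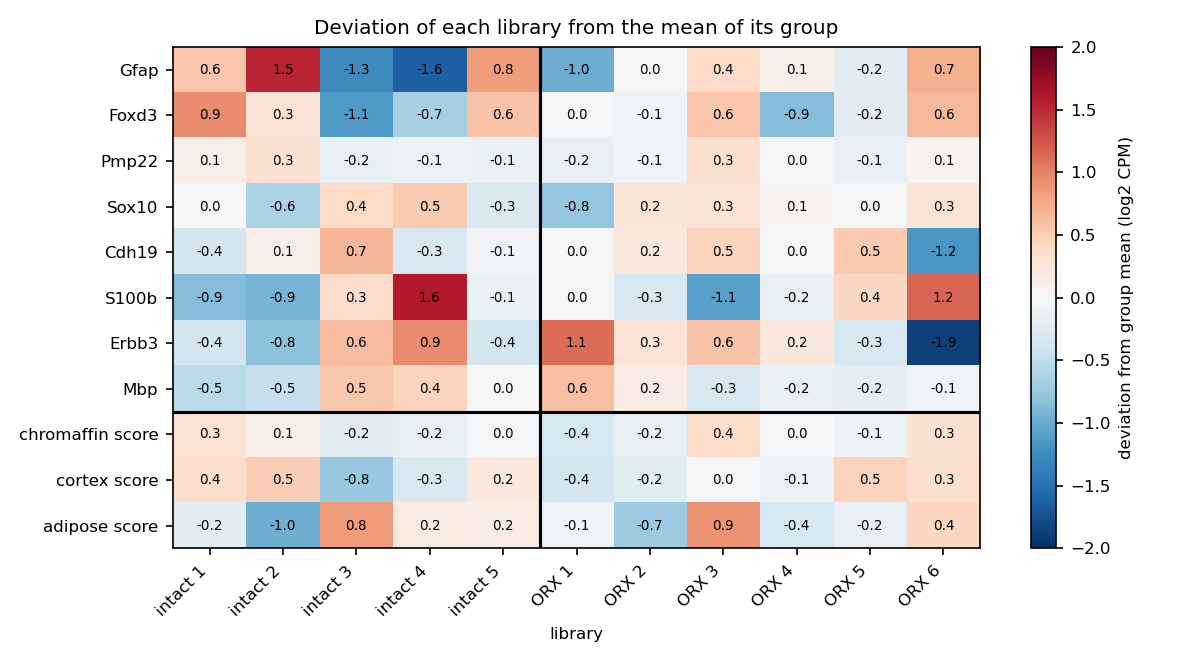
Deviation of each library (columns) from the mean of its own group, in log2 CPM, for the 8 glial genes and, below the line, the mean levels of the chromaffin, cortex and adipose lists. In intact 3 and 4, Gfap deviates by -1.28 and -1.63 and Foxd3 by -1.13 and -0.67, while Mbp deviates by 0.55 and 0.44.

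The 8 genes also differed in how they followed the chromaffin score within the groups. Over the 11 libraries with group means removed, Pmp22 followed it (Pearson r = 0.81, exact permutation p = 0.0028; rho = 0.84, exact p = 0.00396), as did Gfap (r = 0.71, exact permutation p = 0.00782; rho = 0.80, exact p = 0.00304) and Foxd3 (r = 0.70, exact permutation p = 0.0178; rho = 0.72, exact p = 0.0189). Mbp ran against it (r = -0.82, exact permutation p = 0.00196; rho = -0.82, exact p = 0.00591). Erbb3 was at -0.62 (exact permutation p = 0.0601), with a rho of -0.73 (exact p = 0.0203). Cdh19 and S100b were both at -0.37 and Sox10 at 0.16 (exact permutation p = 0.338, 0.273 and 0.653). Without ORX 1 and intact 1, the libraries farthest from the median score, r was 0.82 for Pmp22, 0.64 for Gfap, 0.75 for Foxd3, -0.66 for Mbp and -0.32 for Sox10. In the 6 ORX libraries by themselves, r was 0.88 for Pmp22 (exact permutation p = 0.00278), 0.89 for Gfap (0.0167), 0.61 for Foxd3 (0.213), 0.73 for Sox10 (0.0722) and -0.77 for Mbp (0.0708). No r was computed within the 5 intact libraries, and a difference between the groups in these r was not tested. In intact, Sox10 was highest in intact 3 and 4 (7.75 and 8.45 CPM). Those libraries had the lowest chromaffin scores of that group (6.49 and 6.54). With Vgf left out of the score, an alternative chosen after seeing the data, r was 0.58 for Gfap, 0.61 for Foxd3, 0.78 for Pmp22 and -0.73 for Mbp. Scores of lists outside the medulla gave similar values over the 11 libraries. With the cortex score r was 0.79 for Gfap, 0.69 for Foxd3, 0.50 for Pmp22, -0.84 for Mbp and -0.76 for Erbb3. With the 4 tested kidney and epithelial genes it was 0.76 for Gfap, 0.68 for Foxd3, 0.74 for Pmp22 and -0.85 for Mbp, so the pattern was not shown to be particular to the medulla. Adjusted over 14107 genes outside the list, no glial gene passed (exact permutation adjusted p = 0.091 for Mbp, the smallest), and 0.22% of these genes did. Without adjustment, 16.4% of all genes were below 0.05. Gfap itself was followed more closely by other transcripts: among the nearest were Slc7a11, Tmod1, Vgf and Tpm4 (r from 0.94 to 0.95, exact permutation adjusted p = 0.216 for each). For the other genes the nearest transcripts had r of 0.98 for Mbp (Extl2) and Sox10 (Slc39a13), 0.97 for Pmp22 (Zdbf2) and 0.92 for Foxd3 (Ubxn8), and none passed after adjustment. The cystine transporter gene Slc7a11 and the chromaffin gene Vgf are not glial markers.

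**Figure D4:**
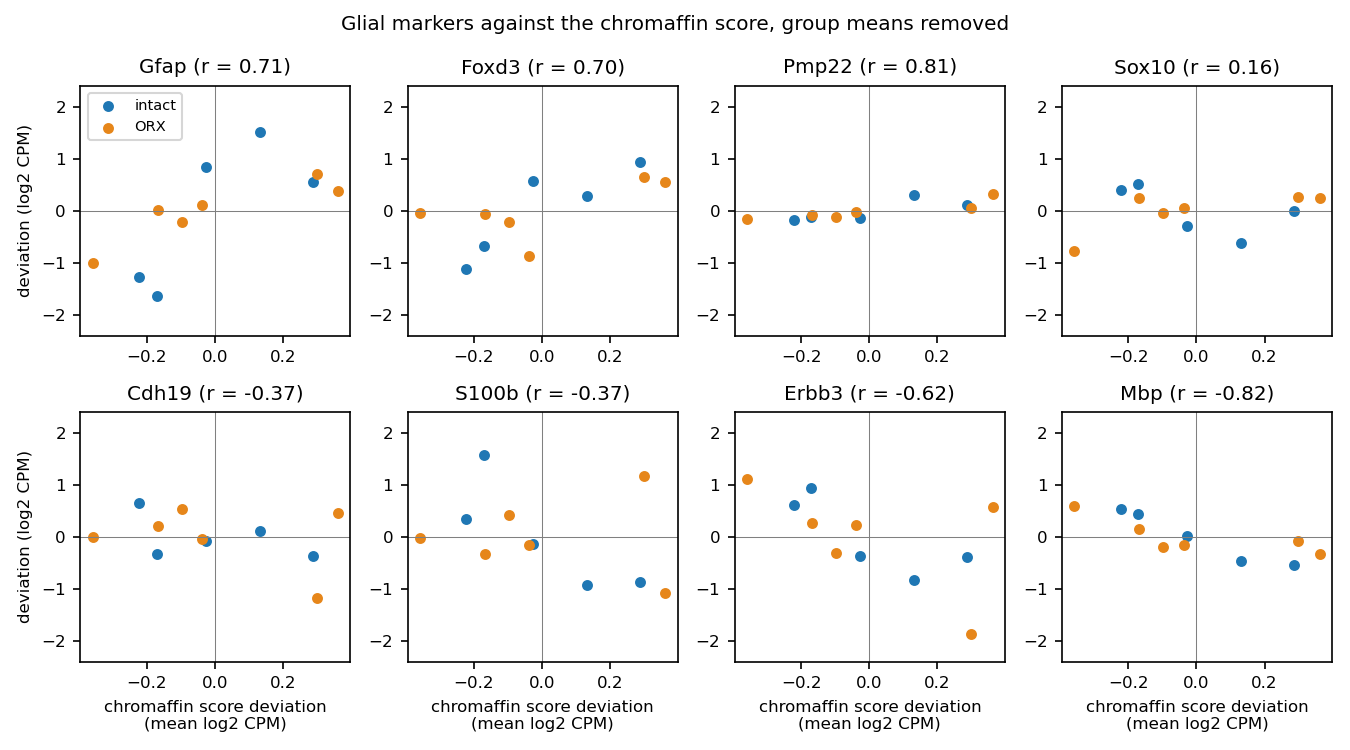
Each point is 1 library (intact blue, ORX orange), with the deviation of the chromaffin score from its group mean on the horizontal axis and that of a glial gene on the vertical axis, both in log2 CPM. Gfap, Foxd3 and Pmp22 rise with the score (r = 0.71, 0.70 and 0.81) and Mbp falls with it (r = -0.82).

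A wider set, 74 genes in 5 lists drawn up around Schwann cells, of which 61 were tested, had 6 genes called lower and none higher. That was 9.84% against 6.21% of all tested genes. The lists are not confined to glia, and the called genes Sox5, Col4a1 and Lamb1 are also active in other cells. Among 11 tested myelin genes none was called and the median log2 difference was -0.16. Of 13 genes of immature and non-myelinating Schwann cells, Gfra3, a co-receptor for the axon factor artemin (log2 -0.86 ± 0.23; edgeR adjusted p = 0.043), and the potassium channel gene Kcna1 (-1.08 ± 0.30; 0.0468) fell, and 11 did not pass. The neurotrophin receptor gene Ngfr was among them at -0.47 ± 0.23 (edgeR adjusted p = 0.23). Gfra3 was no longer called when any library other than intact 2 and ORX 3 was left out (edgeR adjusted p up to 0.115), nor Kcna1 for any library other than intact 3 (up to 0.114).

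In the list of neural crest transcription factors and receptors, which also holds the secreted protein Lgi4, 2 of 12 tested genes fell. Sox5, a SOX factor of the neural crest that is also active in other tissues, averaged 17.8 ± 4.74 CPM in intact and 8.23 ± 1.99 in ORX (SD). The log2 difference was -1.11 ± 0.23 (edgeR adjusted p = 0.0121), called whichever library was left out. Lgi4, a protein that Schwann cells secrete for myelination, averaged 10.7 ± 1.29 CPM in intact and 6.43 ± 1.25 in ORX (SD), a log2 difference of -0.73 ± 0.18 (edgeR adjusted p = 0.0316). It was no longer called when any library other than ORX 3 and ORX 6 was left out (edgeR adjusted p up to 0.0733). In the list of neuregulins, ErbB receptors and their proteases, none of 11 tested genes was called and the median was -0.10. Among 14 genes of the Schwann basal lamina and its receptors, 12 were below 0 with a median of -0.60. Col4a1 (-1.30 ± 0.29; edgeR adjusted p = 0.0205) and Lamb1 (-0.90 ± 0.23; 0.0364) fell. Col4a1 was not called without intact 1, 2 or 5 or ORX 1, 2 or 5 (highest edgeR adjusted p 0.0564), nor Lamb1 without any library other than intact 3, intact 4 and ORX 3 (up to 0.0984). Collagen IV and laminin chains are made by vessel and stromal cells as well.

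**Figure D5:**
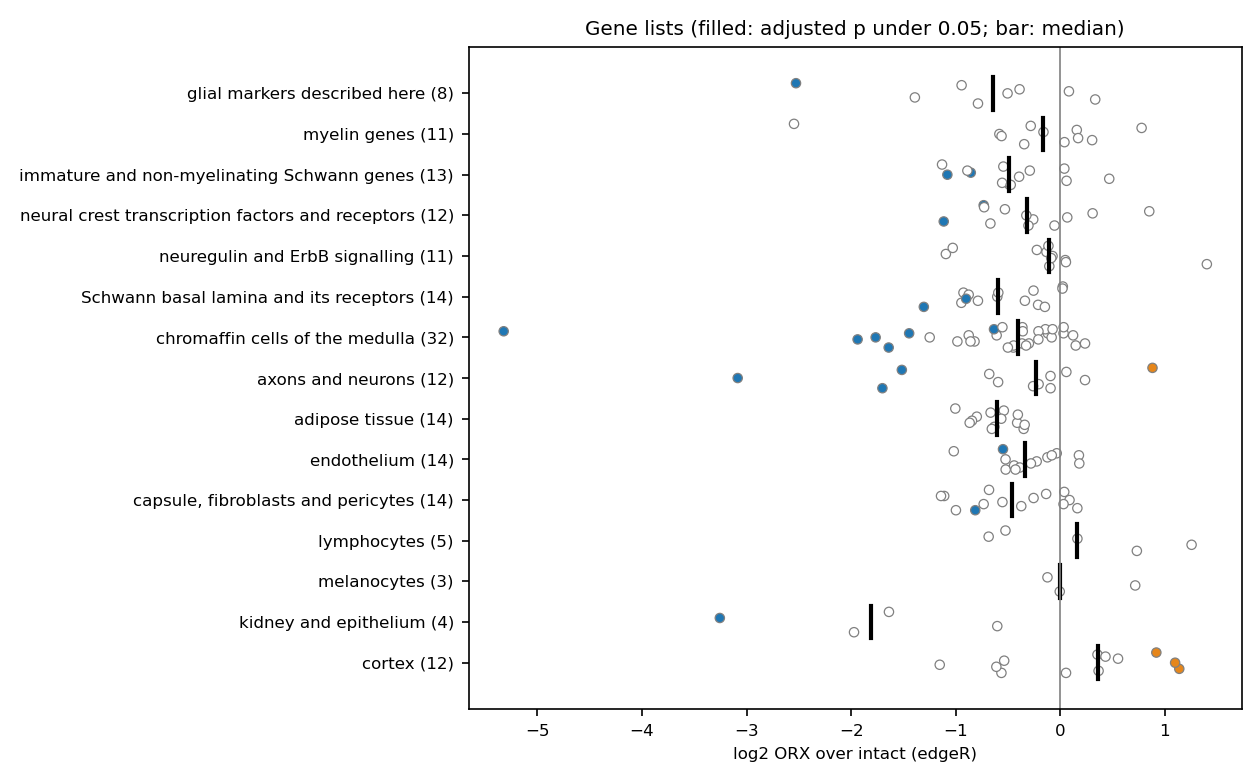
Each circle is the log2 change (ORX over intact, horizontal axis) of 1 tested gene in its list, filled blue or orange where it was called lower or higher, black bars mark list medians, and the number of tested genes stands in parentheses. The 8 glial genes have a median of -0.64 and 1 call, and the myelin list a median of -0.16 and none.

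Markers of neighbouring cells moved as follows. Of 12 axonal and neuronal genes, Tubb3 (log2 -1.70 ± 0.23), Nefm (-3.08 ± 0.59) and Nefl (-1.51 ± 0.33), which encode parts of the axonal cytoskeleton, fell (edgeR adjusted p = 0.000915, 0.00831 and 0.0169), the microtubule-binding gene Mapt rose (0.88 ± 0.21; 0.0261), and the median was -0.23. The mean level of that list was 3.28 to 3.88 log2 CPM in intact and 2.96 to 3.24 in ORX. Of 14 endothelial genes Eng fell (-0.55 ± 0.13; edgeR adjusted p = 0.0299), with a list median of -0.33, and of 14 capsule, fibroblast and pericyte genes Pdgfrb fell (-0.81 ± 0.18; 0.0186), with a median of -0.46. Eng was not called without intact 1, 2 or 5 or ORX 1, 2 or 5 (highest edgeR adjusted p 0.0856), nor Pdgfrb without intact 5 or ORX 5 (highest 0.0582). Cortical genes had a median of 0.36, with Mc2r, Hsd3b1 and Cyp21a1 called higher, the last not without ORX 2 or ORX 5 (highest edgeR adjusted p 0.0516). Lymphocyte genes (5 of 12 tested), melanocyte genes (3 of 9) and kidney or epithelial genes (4 of 11) were mostly too low to test, and of them only Krt18 was called (-3.26 ± 0.80; edgeR adjusted p = 0.0299), and not without intact 1, 2 or 5 or ORX 1, 2, 4 or 5 (up to 0.0825). The part of these cells in the glial differences was not tested.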

How the data were processed

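RNA-seq libraries were made from 300 ng of total adrenal RNA, per the labels' protocols, which name both a stranded and a v2 Illumina TruSeq guide, so the strand setting is not settled. Each deposited value is an unnormalised count of reads for 1 gene symbol. Listed in the submitters' processing notes, with no role stated, are Subread 1.5.1, mm10 and bcl2fastq 1.8.4. The annotation used is not given in the sources used here. In the count file there are 2 identical copies of its table, and the first was used. Total counts ranged from 11368447 to 15029582 per library. The labels do not say that each sample came from its own mouse, so p-values measure the spread between samples, which may be technical.

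Genes were kept by filterByExpr (minimum count 10, minimum total 15), and TMM factors and quasi-likelihood tests came from edgeR 4.0.16 (R 4.3.3). CPM are counts per 1000000 of the TMM-scaled library size. SEs were derived from the fold change and F statistic. Log2 CPM used a prior count of 2. The chromaffin score was subtracted per library and the result tested with limma 3.58.1. Within-group correlations used all 86400 orders of the samples within groups, two-sided, adjusted over all genes. Positions and transcript lengths are GENCODE M21 (GRCm38), and promoters are from RefSeq. The tests were checked on simulated counts. Members, lists and rules were chosen with earlier results of these data known. Named were the 8 members; Ngfr, Th, Chga and Pnmt; up to 3 called genes of each of the other 14 lists by smallest p; and the 5 genes most like a member. A few further genes chosen this way are not reported here. Mapt was named after its value was seen. All 218 list symbols were found, 3 under an older symbol. Alternatives were other scalings, filters, DESeq2 1.42.0, limma voom, covariates, a length correction, a block and left-out libraries.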

Additional observations from a re-analysis of the deposited data

Results flagged for a closer look

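Sox10 in ORX 1, at 2.37 CPM, lay far below the other ORX libraries, the next of which had 4.08 CPM. The gap was 0.639 of the group's range, above Dixon's critical value of 0.625 for 6 samples. ORX 1 also had the lowest Gfap (1.44 CPM) and the highest Mbp (42.3 CPM) of the ORX group. Of the 16 groups of values tested this was the single one to stand out, and chance gives about 1 in 20. Without ORX 1 the log2 difference of Sox10 was -0.39 and did not pass (edgeR adjusted p = 0.398).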

How the results depend on the processing

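The number of genes called was 878 in edgeR, 1630 with DESeq2, 2056 with limma voom, 531 after adjusting for the adipose score and 52 after adjusting for the chromaffin score. It ranged from 408 (without intact 5) to 1280 (without ORX 3) when 1 library was left out. The glial genes called lower numbered 2 (Gfap and Foxd3) under DESeq2, limma voom, a transcript length correction, and with intact 3 and ORX 6 both left out, 0 with the chromaffin covariate, and 1 to 2 with 1 library left out. Other scalings and filters kept that count at 1, and no alternative called a glial gene higher. With replicate number as a replicate block, 416 genes and 0 glial genes were called, with Gfap at -2.35 (edgeR adjusted p = 0.0915). Same-numbered samples had correlations of their deviations of -0.28, -0.12, -0.21, 0.18 and 0.18, and 1 of 5 intact libraries correlated best with its own number, so the numbers were not taken to pair the samples.

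Signs turned as follows, and the cause was not tested. The log2 difference of Pnmt was -0.23 under limma voom, -0.24 with the block, -0.067 with the length correction and -0.21 with intact 3 and ORX 6 both left out. With the chromaffin covariate Mbp was at -0.76, Foxd3 at 0.055, Th at 0.36, Chga at 0.80 and Krt18 at 0.29. With 1 library left out, Mbp ranged from -0.072 to 0.22, Chga from -0.25 to 0.036 and Pnmt from -0.21 to 0.35.

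Relative to the chromaffin score, 7027 genes were called, 1569 with the 6-gene score, and 4486 (without intact 1) to 8680 with 1 library left out. The glial genes called higher numbered 2 with the median of the chromaffin genes and 1 to 2 with 1 library left out. Cdh19 was at 0.14 with the block and ranged from -0.32 to 0.14 with 1 library left out, Sox10 from -0.015 to 0.35, S100b from -0.41 to 0.32 and Erbb3 from -0.11 to 0.62. A score without Vgf, chosen after seeing the data, kept Gfap at -1.59 and Pmp22 at 0.86, both called (limma adjusted p = 0.0185 and 0.00155). For likeness to the score within groups, 49 genes were called with the 6-gene score in place of 31, and 0 with any 1 library left out, where fewer orders of the samples were available. The r of Sox10 ranged from -0.28 to 0.32. Depth limits Foxd3 and Erbb3 most, with 6 to 64 and 7 to 77 counts per library.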
